A study of Mus musculus with 3 samples.

Results

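Neutrophils are the first blood leukocytes to enter reperfused myocardium, and they carry large amounts of calprotectin, the complex of the small calcium-binding proteins S100a8 and S100a9. The pair was used here to find neutrophil-rich places in spatial transcriptomic sections of mouse heart, in which each spot is a barcoded patch of tissue that can hold several cells. In each injured section, a spot with at least 200 detected genes was called neutrophil-rich when its S100a8 and S100a9 counts, summed and divided by its own total, reached the 95th percentile of that section. This gave 105 of 2082 spots in the I/R section and 98 of 1960 spots in the SBP section, out of 6276 spots in the 3 sections. The counts are UMIs, unique molecular identifiers, each standing for 1 captured transcript. The S100a8 and S100a9 values of these spots describe the choice and carry no test.

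All 3 sections were heart tissue of C57BL/6 mice given vehicle or SBP by gavage for 7 days before an operation. SBP is a traditional Chinese medicine pill also called MUSKARDIA. The I/R section came from a vehicle-treated heart whose left anterior descending coronary artery was tied for 30 min and reperfused for 24 h, the SBP section from a heart pretreated with SBP and injured in the same way, and the sham section from a vehicle-treated heart in which the needle was passed without tying the artery. There was 1 section per condition, so spots were not replicates of a condition, no p-value was computed, and a difference between sections cannot be told apart from a difference between animals, cutting planes or libraries.

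Neutrophils leave the blood through receptors for chemokines such as Cxcr2, respond to granulocyte colony-stimulating factor through Csf3r, and release proteases and lipocalin from granules. S100a8 and S100a9 are also made by classical monocytes, so the pair marks recruited myeloid cells with neutrophils as the richest source. In the heart after reperfusion, neutrophils arrive in the first day, together with or just before the Ly6c-high monocytes that become Spp1 and Arg1 macrophages. A spot that is poor in a transcript may hold fewer cells of that type or less RNA per cell, which cannot be told apart here.

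The genes behind the choice lie side by side on mouse chromosome 3 and are read in opposite directions: S100a8 at chr3:90668978-90670035 on the plus strand and S100a9 at chr3:90692632-90695721 on the minus strand (mm10, GENCODE annotation). The 120 bases before the RefSeq start of each gene, and of Csf3r as the neutrophil receptor most used below, are shown to compare their motifs (RefSeq, build GRCm38.p6). They lie at chr3:90668951-90669070 on the plus strand for S100a8, chr3:90695722-90695841 on the minus strand for S100a9 and chr4:126024539-126024658 on the plus strand for Csf3r. Capitals mark 3 motifs searched on both strands: the TATA box TATAAA, the C/EBP-type letters TTNNGNAA and the PU.1-type letters GAGGAA.
S100a8: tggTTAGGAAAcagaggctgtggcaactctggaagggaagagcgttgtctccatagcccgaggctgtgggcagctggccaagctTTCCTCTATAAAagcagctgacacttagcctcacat
S100a9: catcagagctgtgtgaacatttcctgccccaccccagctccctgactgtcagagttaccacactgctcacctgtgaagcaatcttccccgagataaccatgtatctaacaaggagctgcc
Csf3r: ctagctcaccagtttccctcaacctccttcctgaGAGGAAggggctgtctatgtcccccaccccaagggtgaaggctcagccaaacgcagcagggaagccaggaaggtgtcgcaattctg
S100a8 held TATAAA 30 to 25 bases before its start, a C/EBP-type match 117 to 110 bases before it, and a PU.1-type match on the opposite strand 36 to 31 bases before it, which runs into the TATA box. Csf3r held a PU.1-type match 86 to 81 bases before its start, and S100a9 held none of the letters in this window. A TATAAA of S100a9 begins directly after the window, at base 1 from its RefSeq start. Of 32851 mouse promoters, 6.34% held TATAAA, 18.0% the C/EBP-type letters and 11.6% the PU.1-type letters in the same window, so a match describes these letters only. GENCODE places the first bases of S100a8 and Csf3r inside the windows shown, upstream of their RefSeq starts. By GENCODE, the TATAAA of S100a8 and the PU.1-type matches of both genes lie after the first base. The C/EBP-type match of S100a8 lies before it.

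The sections held 30238530 (I/R), 21631280 (SBP) and 25118258 (sham) UMIs. S100a8 and S100a9 together stood at 208 UMIs per 1000000 UMIs (CPM) over the I/R section, 106 CPM over SBP and 22.2 CPM over sham. More than 50% of the spots of each injured section held no UMI of the pair: 51.7% in I/R and 74.3% in SBP. Intervals below are 95% exact intervals that cover counting error only.

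In the I/R section, the 105 neutrophil-rich spots held 2240 of the 6279 UMIs of the pair, 35.7% (34.5 to 36.9), and 2.81% of all UMIs. In SBP, the 98 spots held 1269 of 2295, 55.3% (53.2 to 57.3), and 3.48% of all UMIs. These shares follow from the rule and from how sparse the pair is, and by the same rule sham spots held 77.6% of only 558 UMIs. At the other section's threshold the order turned, to 56.7% in I/R and 28.4% in SBP. Within the neutrophil-rich spots of I/R, the pair ran from 15.9 to 203 UMIs per 10000 with a median of 23.5. In SBP it ran from 9.56 to 123 with a median of 13.9, so the ranges of the sections overlapped. S100a8 stood at 1357 CPM in the I/R spots against 71.8 CPM in the other spots, a log2 ratio of 4.24, and at 859 against 22.7 CPM in SBP, 5.24. S100a9 stood at 1279 against 65.7 CPM in I/R, 4.28, and at 829 against 26.4 CPM in SBP, 4.97. Both genes were detected in 103 of the 105 I/R spots and in 93 of the 98 SBP spots.

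The threshold lay at 15.8 per 10000 in I/R and 9.41 in SBP. Just inside it, an I/R spot held 13 UMIs of the pair among 8200, and just outside it another held 8 among 5097. In SBP these were 13 among 13603 and 4 among 4255. The choice thus turned on a few UMIs at its edge. By the I/R threshold only 37 SBP spots, 1.89%, would qualify, and by the SBP threshold 221 I/R spots, 10.6%, would. When each spot's UMIs were split at random in 2 parts, spots chosen on one part held 30.9% (29.3 to 32.5) of the pair's UMIs of the other part in I/R and 48.4% (45.5 to 51.4) in SBP. Spots chosen on S100a8 alone had S100a9 at a log2 ratio of 3.93 (3.82 to 4.05) in I/R and 4.64 (4.48 to 4.81) in SBP. These spots held 30.3% of the S100a9 UMIs in I/R and 46.1% in SBP.

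**Figure D1:**
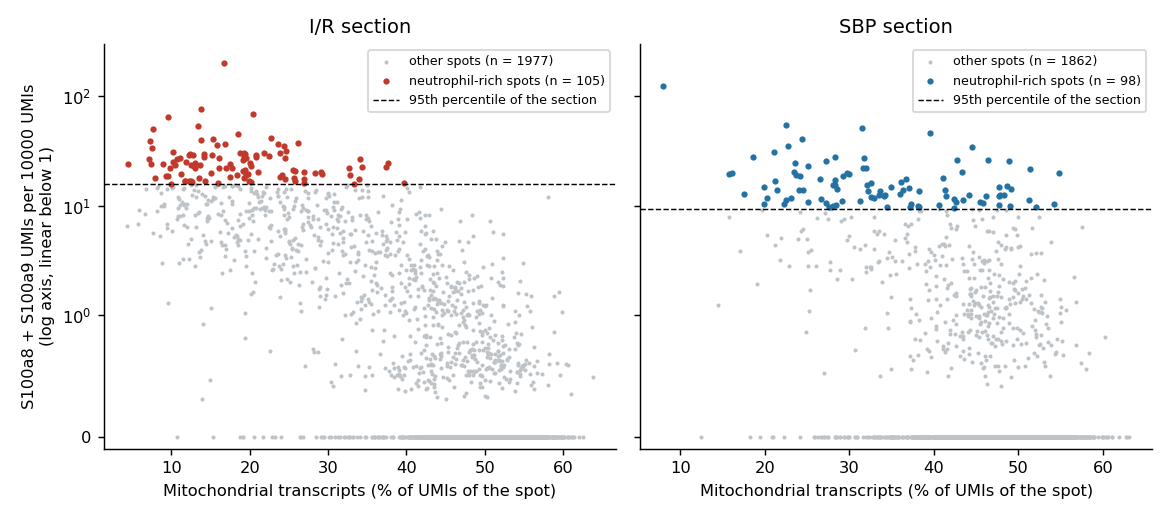
Each point is 1 spot of the I/R section (left) or the SBP section (right), with the percent of its UMIs from genes of the mitochondrial genome on the horizontal axis and its S100a8 and S100a9 UMIs per 10000 on the vertical axis; neutrophil-rich spots are coloured. The I/R neutrophil-rich spots gather at low mitochondrial percent, between 4.41 and 39.6, and the SBP ones spread from 7.97 to 54.8.

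Neutrophil-rich spots were poor in heart muscle RNA and shallow. Genes of the mitochondrial genome, which the dense mitochondria of cardiomyocytes supply, made up 17.9% of their UMIs in I/R against 45.1% in the other spots. In SBP they made up 36.7% against 46.7%. By spot, the mitochondrial percent of the I/R members ran from 4.41 through a median of 17.7 to 39.6, and that of the SBP members from 7.97 through 32.6 to 54.8. The median neutrophil-rich spot held 6705 UMIs against 14852 in the other spots of I/R, and 6324.5 against 10770.5 in SBP, while the median number of genes was 2490 against 2622 and 2117.5 against 2101. The gap in mitochondrial percent was thus narrower in SBP. The rule divided the pair by all UMIs of a spot, mitochondrial ones included, so depth and mitochondrial percent entered the choice. How far this set the values above was not tested.

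Mitochondrial genes took a smaller share of these spots, and most other genes came out higher in CPM. Of 8070 genes with at least 200 UMIs in the I/R section, 3451 were at least 2-fold higher in the neutrophil-rich spots (42.8% of those tested) and 540 at least 2-fold lower (6.69%). The interval of the ratio lay clear of 0 for 3450 and 475 of them, and 1918 had an interval clear of the median of all genes, a log2 ratio of 0.87. In SBP, 1083 of 6362 genes were at least 2-fold higher (17.0%) and 185 lower (2.91%), around a median of 0.40. With mitochondrial UMIs left out of the totals of the same spots, 1221 genes were higher and 1019 lower in I/R, and 595 and 362 in SBP. The median gene then stood at 0.29 in I/R and 0.15 in SBP. Measured from the median gene, the counts were 618 and 1389 in I/R, and 399 and 522 in SBP. Of all calls, the share that were higher went from 86.5% to 54.5% and 30.8% in I/R and from 85.4% to 62.2% and 43.3% in SBP under those scalings. Each ratio below is therefore best read against the median gene of its section, and all are on the CPM scale. A ratio between 0 and that median turns negative when it is measured from the median gene. Counts of list members higher than in all other spots are likewise best read beside 42.8% of all genes in I/R and 17.0% in SBP. Counts of lower members are best read beside 6.69% and 2.91%.

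The 10 genes with the largest ratios in I/R included receptors of neutrophils, macrophage genes and secreted proteins. Il1r2, the decoy receptor for interleukin 1 on neutrophils, stood at 73.0 CPM in the neutrophil-rich spots against 6.16 CPM elsewhere, a log2 ratio of 3.57 (3.13 to 3.99). Csf3r, the receptor of granulocyte colony-stimulating factor, stood at 245 against 20.7 CPM, 3.56 (3.33 to 3.79). The next were Arg1 (arginase of tissue-repair macrophages) at 3.51, Il1b (interleukin 1 beta) at 3.47, Mmp9 (gelatinase of neutrophil granules) at 3.40, Hp (haptoglobin) at 3.38, F10 (coagulation factor X) at 3.34, the myeloid receptors Clec4n at 3.30 and Cd300lf at 3.29, and Thbs1 (thrombospondin 1) at 3.27.

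In SBP the leading genes were Mmp9 at 132 against 6.03 CPM, a log2 ratio of 4.45, Clec4n at 3.62, Spp1 (osteopontin) at 3.57, Ncf1 (a subunit of the phagocyte NADPH oxidase) at 3.49, Thbs1 at 3.36, Cxcl5 (a chemokine for Cxcr2) at 3.12, Arg1 at 3.11, Cd24a at 3.07, and Cd44 (the hyaluronan receptor) and Marcksl1 at 3.06 each. All 10 leading genes of each section were at least 2-fold higher in the other section too. The SBP leaders had a median of 3.01 in I/R. The I/R leaders ran from 3.11 (Arg1) to 5.02 (Il1r2, on 89 UMIs) in SBP, where some fell short of the UMI minimum for testing. Among genes tested in both sections, the 10 with the largest I/R ratios had a median of 3.24 in SBP. Of all genes tested in both, 38.3% were at least 2-fold higher in I/R and 17.1% in SBP. Against spots of the same mitochondrial percent in I/R, Spp1 was at 0.31 and Marcksl1 at -0.041. Among genes with at least 2000 UMIs, the leaders were Spp1 2.92, Tgfbi 2.90, Fn1 2.85, Ccl2 2.80 and Ccl6 2.77 in I/R, which are secreted matrix proteins and chemokines. In SBP, Spp1 was followed by Ccl6 2.39, Fn1 2.38, Fxyd5 2.18 and Timp1 2.04.

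**Figure D2:**
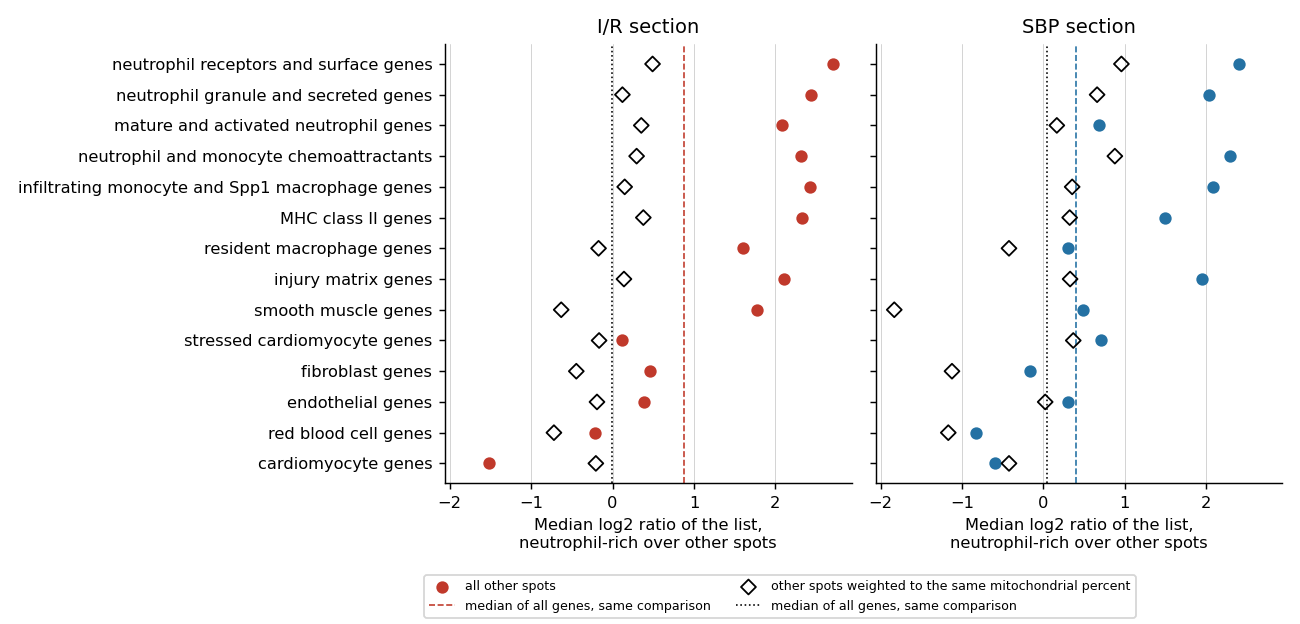
Median log2 ratio of neutrophil-rich over other spots for a selection of the gene lists, in I/R and SBP. Each list is set against all other spots and against other spots weighted to the same mitochondrial percent. Dashed and dotted lines mark the medians of all genes in those comparisons. Other lists with tested members, such as the IL-6, heat shock and other S100 lists, are not drawn. Neutrophil receptors, chemoattractants and infiltrating monocyte genes lie above 2 in both sections against all other spots, and cardiomyocyte genes lie at -1.51 in I/R and -0.59 in SBP.

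The tested genes of the neutrophil receptor list were higher in both sections. Of 20 receptors and surface genes of neutrophils, 11 reached 200 UMIs in I/R and all 11 were at least 2-fold higher, with a median log2 ratio of 2.71. In SBP, 4 reached 200 UMIs and all 4 were higher, with a median of 2.40. Csf3r, Il1r2, Cxcr2 and Trem1 fell short of 200 UMIs there. The SBP median thus leaves them out and rests on genes such as Itgam, which monocytes share. Clec4d, an activating lectin receptor, stood at 127 against 15.2 CPM in I/R, 3.07. Itgam, the integrin that lets neutrophils and monocytes hold to activated endothelium, stood at 154 against 19.8 CPM in I/R, 2.96, and at 59.8 against 9.82 CPM in SBP, 2.61. Csf3r held 816 UMIs in I/R, of which 25.5% lay in the neutrophil-rich spots, and 183 UMIs in SBP, of which 48.6% did. By spot, Csf3r ran from 0 through a median of 2.17 to 14.3 UMIs per 10000 in the I/R spots, with no UMI in 28 of 105, and from 0 through 0 to 7.38 in SBP, with no UMI in 52 of 98. In the other spots the median was 0 in both sections, and the highest reached 14.5 in I/R and 11.6 in SBP, so single spots overlapped.

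Several neutrophil genes fell short of 200 UMIs in SBP but had larger ratios there than any gene tested other than the pair. They were named after their values were seen. Cxcr2, the chemokine receptor of neutrophils, had 35 of its 49 SBP UMIs in the neutrophil-rich spots, a log2 ratio of 6.12, and 34 of 145 in I/R, 3.41. Csf3r had 89 of 183 in SBP, 4.72. Il1r2 had 48 of 89 in SBP, 5.02, and Trem1, an amplifier of neutrophil activation, 18 of 34, 4.97. Il1b had 71 of 134 in SBP, 4.97, against 99 of 408 in I/R.

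The label was checked against the defining markers of neutrophils. Ly6g, the surface antigen by which mouse neutrophils are sorted, had 1 UMI in the I/R section and none in SBP, and none in any neutrophil-rich spot. The granule genes of marrow precursors were also at or near 0: Elane, Ctsg and Ngp had no UMI in either injured section, Mpo had 1 in I/R and Camp 3 in SBP, all outside these spots. Retnlg, a gene of mature neutrophils, had 12 of its 40 I/R UMIs and 2 of its 15 SBP UMIs in the spots. Mmp8 had 19 of 63 in I/R and 3 of 17 in SBP. The label thus rests on receptors and activation genes, most of which monocytes share, and not on Ly6g.

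Of the granule and secreted genes, 6 of 7 tested were at least 2-fold higher in each section, with medians of 2.43 in I/R and 2.03 in SBP. They were Mmp9, Ncf1, Chil3, Cyba, Lyz2 and Cybb, of which Cyba and Cybb encode the oxidase's membrane subunits. Lyz2, lysozyme of neutrophils and macrophages alike, stood at 3341 against 619 CPM in I/R, 2.43, and at 1003 against 322 CPM in SBP, 1.64. The exception in the list was Lcn2, lipocalin 2 of neutrophil granules, which other heart cells also make. It stood at 41.2 against 85.7 CPM in I/R, a log2 ratio of -1.06 (-1.58 to -0.58), and at 165 against 121 CPM in SBP, 0.44 (0.17 to 0.71).

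Genes of mature and activated neutrophils were mixed. In I/R, 7 of 9 tested were at least 2-fold higher (42.8% of all genes), with a median of 2.08. In SBP 3 of 6 were higher (17.0% of all genes), with a median of 0.69. Srgn, the granule proteoglycan serglycin, was at 2.43 and 2.59, and Ifitm1 at 2.88 and 2.26. G0s2, an inhibitor of fat breakdown, was at -0.97 and -0.22, and Sod2, the mitochondrial superoxide dismutase, at -0.98 and -0.17. Heart muscle expresses both of these genes too. Among those under 200 UMIs in SBP, Il1rn, the interleukin 1 receptor antagonist, had 85 of 182 UMIs in the spots, 4.60, and Acod1, which makes itaconate, 25 of 38, 5.74.

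Chemokines that draw neutrophils and monocytes were higher in the same spots. In I/R, 10 of 11 tested were at least 2-fold higher, with a median of 2.31, and in SBP 8 of 10, with a median of 2.29. Ccl2, the main ligand for monocyte Ccr2, stood at 787 against 113 CPM in I/R, 2.80, and at 348 against 48.2 CPM in SBP, 2.85. Ccl7, also a Ccr2 ligand, was at 2.63 and 2.83. Cxcl5 stood at 335 against 60.4 CPM in I/R, 2.47, and at 444 against 51.0 CPM in SBP, 3.12. C3, the central complement protein, was at 0.18 in I/R and 0.00 in SBP. The chemokines made by neutrophils and macrophages themselves held few UMIs but were concentrated in SBP: Cxcl2 had 55 of 91 UMIs in the spots, 5.41, Cxcl3 29 of 41, 6.07, Ccl3 21 of 43, 4.73, and Ccl4 55 of 123, 4.49. In I/R these genes were at 3.22, 3.65, 2.42 and 1.95.

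Markers of recruited monocytes and Spp1 macrophages were high in the same spots. In I/R, all 19 tested were at least 2-fold higher, with a median of 2.42, and in SBP 13 of 15, with a median of 2.09. Spp1 ran from 0 through a median of 16.6 to 222 UMIs per 10000 in the I/R spots, against a median of 0.71 elsewhere, and from 0 through 3.43 to 163 in the SBP spots, against a median of 0. In I/R the highest single spot of Spp1, 394 per 10000, lay outside the neutrophil-rich spots. Ccr2, the receptor of classical monocytes, was at 2.61 in I/R and 2.79 in SBP, and Arg1 stood at 419 against 36.7 CPM and 112 against 12.9 CPM. The summed level of this list was 15134 CPM in the neutrophil-rich spots against 3160 CPM elsewhere in I/R, and 5937 against 1941 CPM in SBP. How much of the pair came from monocytes in the same spots was not tested.

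Resident macrophage genes were higher in I/R and near the median gene in SBP. In I/R, 9 of 13 tested were at least 2-fold higher (42.8% of all genes), with a median of 1.60. In SBP 2 of 11 were higher (17.0% of all genes), with a median of 0.30. Both medians turned negative against spots of the same mitochondrial percent, as given below. C1qa, a subunit of complement C1q, stood at 279 against 129 CPM in I/R, 1.11, and at 136 against 109 CPM in SBP, 0.31. Folr2, a marker of long-lived tissue macrophages, was at 0.07 and -0.57. Every tested MHC class II gene, of antigen presentation, was at least 2-fold higher: 6 of 6 in I/R with a median of 2.33, and 4 of 4 in SBP with a median of 1.5. T, B and NK cell genes each stayed under 200 UMIs, with a summed level of 31.8 against 8.54 CPM in I/R and 17.3 against 5.70 CPM in SBP.

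Cardiomyocyte genes were lower, with the lower median in I/R. Of 18 contractile and metabolic genes of cardiomyocytes, 17 were at least 2-fold lower in the I/R spots (6.69% of all genes), with a median of -1.51. In SBP 1 was at least 2-fold lower (2.91% of all genes), with a median of -0.59. Myh6, the main myosin heavy chain of the adult mouse ventricle, ran from 0 through a median of 10.7 to 64.5 UMIs per 10000 in the I/R spots, against a median of 55.6 elsewhere. In the SBP spots it ran from 8.22 through 32.0 to 82.8, against a median of 60.4. The log2 ratio of Myh6 was -1.98 in I/R and -0.83 in SBP. Tcap, which anchors titin at the Z-disc, was lowest of the list in I/R at -2.31. Ryr2, the calcium release channel, was the gene past 2-fold in SBP, at -1.01. The lowest ratios of all tested genes in I/R belonged to genes with no UMI in the spots: against the floor of 3 UMIs, Mylk4, a muscle kinase, was at least 7.08-fold lower (735 UMIs elsewhere), Rasl10b at least 5.27-fold, Asb14 at least 3.68-fold, Tfdp2 at least 3.14-fold and Thrsp at least 2.97-fold. In SBP the lowest were Efnb3, Wnk2, Aldh1a1, Gm5860 and Art5, each with 1 UMI in the spots and between 227 and 348 elsewhere.

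Genes of stressed cardiomyocytes had a lower median in I/R than in SBP, a difference that was not tested. In I/R, 2 of 15 were at least 2-fold higher, where 42.8% of all genes were, and 2 lower, with a median of 0.11. In SBP 4 of 14 were higher, where 17.0% of all genes were, and none lower, with a median of 0.71. Nppb, the B-type natriuretic peptide, ran from 0 through a median of 5.07 to 37.6 UMIs per 10000 in the I/R spots against a median of 2.27 elsewhere, a log2 ratio of 0.33, which was -0.25 without mitochondrial UMIs in the totals. In SBP it ran from 0 through 3.56 to 41.3 against a median of 0.77, a ratio of 1.76. Ankrd1, a muscle repeat protein induced by stretch, stood at 1377 against 1724 CPM in I/R, -0.32 (-0.41 to -0.24), and at 2472 against 1328 CPM in SBP, 0.90 (0.83 to 0.96). Hspb1, a small heat shock protein, was at 0.65 and 1.12, and Xirp2, of intercalated discs, at 0.99 and 1.49. With the SBP threshold applied to I/R, which takes 221 spots, Ankrd1 was at 0.09 and Nppb at 0.52. With the I/R threshold applied to SBP, which leaves 37 spots, Ankrd1 was at 0.74 and Nppb at 1.84, so both ratios were lower in I/R at either threshold.

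Matrix genes of the injured heart were higher and structural stromal genes less so. In I/R, 12 of 13 injury matrix genes were at least 2-fold higher, with a median of 2.10, and in SBP 9 of 12, with a median of 1.95. Timp1, an inhibitor of metalloproteinases, was at 2.10 and 2.04. Of the fibroblast list, 2 of 12 were higher in I/R (42.8% of all genes), with a median of 0.46. In SBP 0 of 11 were higher (17.0% of all genes), with a median of -0.17. Of endothelial genes, beside the same shares of all genes, 3 of 12 were higher in I/R, with a median of 0.38. In SBP 0 of 12 were higher, with a median of 0.30. Both lists thus lay below the median gene. Of smooth muscle genes, 6 of 6 were higher in I/R (42.8% of all genes), with a median of 1.77, which turned to -0.63 against spots of the same mitochondrial percent. In SBP 0 of 5 were higher (17.0% of all genes), with a median of 0.48, which turned to -1.83, and the difference between sections was not tested. Acta2, smooth muscle actin, stood at 568 against 156 CPM in I/R and at 114 against 81.9 CPM in SBP.

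Red blood cell genes did not go with the pair. Of 5 red blood cell genes, 0 were at least 2-fold higher in either section, with medians of -0.22 and -0.83. The platelet list was thin: Pf4, which macrophages also make, was at 2.33 in I/R and 1.39 in SBP, and Ppbp, a platelet chemokine, had 46 of its 168 I/R UMIs in the spots, 3.70. Gp9, a defining platelet receptor, had no UMI in them. None of the epicardial or adipocyte genes reached 200 UMIs, and of the atrial genes Nppa, which stressed ventricle also makes, was at 0.11 in I/R and 0.40 in SBP.

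Of the signalling and stress lists, IL-6 and acute phase genes had the highest median in I/R. In that list, 7 of 9 genes were at least 2-fold higher in I/R (42.8% of all genes), with a median of 1.80. In SBP 4 of 6 were higher (17.0% of all genes), with a median of 1.19. Socs3, the feedback inhibitor that IL-6 signals induce, was at 2.56 in I/R. Il11, a cytokine of stromal cells, had 33 of its 77 UMIs in the I/R spots, 4.70, and only 2 UMIs in the whole SBP section. Hypoxia and glycolysis genes stood at medians of 0.83 and 0.28, close to the median gene, though the lactate exporter Slc16a3 was at 2.31 in I/R. Interferon-stimulated genes had medians of 0.98 and 0.81, heat shock genes 1.14 and 0.63, and antioxidant and heme genes 1.47 and 1.22, with heme oxygenase Hmox1 at 2.32 and 2.63. Leukocyte adhesion genes had medians of 0.73 and 0.49, and Icam1, the endothelial ligand of Itgam, was at 2.14 and 1.71.

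Other S100 genes did not all follow the pair. Of 7 tested in each section, 5 were at least 2-fold higher in I/R (42.8% of all genes), with a median of 1.75. In SBP 5 were higher (17.0% of all genes), with a median of 1.13. S100a4, of macrophages and activated stroma, was highest at 2.53 and 2.12. S100a1, the form of heart muscle, stood at 182 against 471 CPM in I/R, -1.37, and at 399 against 489 CPM in SBP, -0.29. Among receptors and partners of the pair, 3 of 5 were at least 2-fold higher in I/R, where 42.8% of all genes were. In SBP 2 of 4 were, where 17.0% of all genes were. Tlr4, the endotoxin receptor that calprotectin activates, was at 2.24 in I/R, and Cd36, a fatty acid transporter of endothelium and muscle that binds the pair's lipid cargo, at -1.24 and -0.49. Ager, the receptor for advanced glycation end products, had 1 of 15 UMIs in the I/R spots and 2 of 8 in the SBP spots.

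Because low mitochondrial percent went with many of these genes, the neutrophil-rich spots were also set against other spots weighted to the same mitochondrial percent in 5 bins. This comparison was added after the data had been seen. It used 520 other spots in I/R and 1744 in SBP, whose weighted mitochondrial percent was 18.5 and 36.7. From the lowest mitochondrial percent to the highest, the bins held 39, 38, 50, 79 and 314 other spots in I/R. In SBP they held 17, 40, 85, 380 and 1222, so the lowest bins rested on few other spots. The median gene then stood at -0.00 in I/R and 0.04 in SBP. Only 48 genes were at least 2-fold higher in I/R and 187 lower, and 165 and 242 in SBP. Of those higher, 6 in I/R and 49 in SBP had 50 or more UMIs in the spots. This keeps them from resting on a handful of counts there, but it does not screen the counts of the other spots.

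Monocytes or other cells share most of the 6 genes in I/R, Ifitm1, Jak2 and Clec4n among them. The 6 were Il1r2 at 1.27 (0.89 to 1.63), Ifitm1 at 1.21, Jak2 (a kinase of cytokine receptors) at 1.09, Il1b at 1.05, Csf3r at 1.01 (0.81 to 1.21) and Clec4n at 1.0. Among list genes with 30 to 49 UMIs in the spots, 5 were at least 2-fold higher: the stromal cytokine Il11 at 2.11 (1.58 to 2.60), Mxd1 of maturing myeloid cells at 1.65, the platelet chemokine Ppbp at 1.37, Cxcr2 at 1.07 and the macrophage chemokine Ccl24 at 1.0. Of the tested neutrophil genes, 3 of 11 receptors, 0 of 7 granule genes and 2 of 9 activation genes were at least 2-fold higher, with Mmp9 at 0.97. Over all 8070 genes tested in I/R, 48 were at least 2-fold higher in this comparison. Neutrophil genes with under 30 UMIs in the spots went both ways. Among those picked after their values were seen, Retnlg was at 3.25 (2.30 to 4.06) on 12 UMIs. Mmp8 was at 1.32 (0.58 to 1.96) on 19 UMIs, and Prtn3 at -0.55 on 2. Macrophage and matrix genes came close to the other low-mitochondrial spots: Spp1 was at 0.31, Lyz2 at 0.12 and Ccl2 at 0.48, and C1qa lay on the other side of 0 at -0.45, as did Acta2 at -0.50. Myh6 was at -0.31. S100a8 itself was at 1.95 and S100a9 at 2.07, against 4.24 and 4.28 over all other spots. The weighted other spots of I/R were thus themselves richer in the pair than all other spots together, with 298 expected S100a8 UMIs. The smooth muscle list had a median of -0.63, in place of 1.77, and the resident macrophage list -0.17, in place of 1.60. Neutrophil receptors kept the highest median of all lists, 0.49, against 0.15 for recruited monocyte genes and 0.14 for injury matrix genes. They did not stand clear of every list. The tested MHC class II genes ran from -0.15 for H2-DMb1 through 0.34 for H2-Ab1 and 0.42 for Cd74 to 0.50 for H2-Eb1.

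In SBP, 2 of 4 receptors, 2 of 7 granule genes and 2 of 6 activation genes of neutrophils were at least 2-fold higher in this comparison. Over all 6362 genes tested in SBP, 165 were. The list members spread widely. Among those picked after their values were seen, Mmp9 was at 3.37 (3.07 to 3.65), Il1r2 at 4.11, Csf3r at 3.32, Cxcr2 at 5.10, Trem1 at 4.15 and Il1b at 3.65. The weighted other spots gave only 2.78 expected UMIs for Il1r2, 1.02 for Cxcr2 and 1.02 for Trem1, so those ratios are not firm. For Mmp9 they gave 9.57. Other members were lower: Cybb was at 0.41, Lyz2 at 0.10, Sod2 at 0.01 and G0s2 at -0.25. Of 10 tested chemoattractants, 4 were at least 2-fold higher. Cxcl2 was at 4.04 and Cxcl3 at 3.08 on few UMIs, Cxcl5 at 2.08 (1.92 to 2.24), Ccl4 at 2.65 and Ccl2 at 1.32. Spp1 was at 1.45 and Nppb at 1.25 (1.12 to 1.38), while C1qa was at -0.42 and Acta2 at -1.82. List medians were 0.96 for the 4 tested neutrophil receptors, which leave out Csf3r, Il1r2, Cxcr2 and Trem1. They were 0.88 for chemoattractants, 0.35 for recruited monocyte genes and -0.42 for resident macrophage genes. S100a8 was at 4.12 and S100a9 at 4.01 against the weighted other spots of SBP, with 37.2 expected S100a8 UMIs. The weighted other spots of I/R and SBP thus differed in how rich they were in the pair. Values of this comparison are therefore not like for like between I/R and SBP. The intervals here take only the counts of the neutrophil-rich spots into account.

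**Figure D3:**
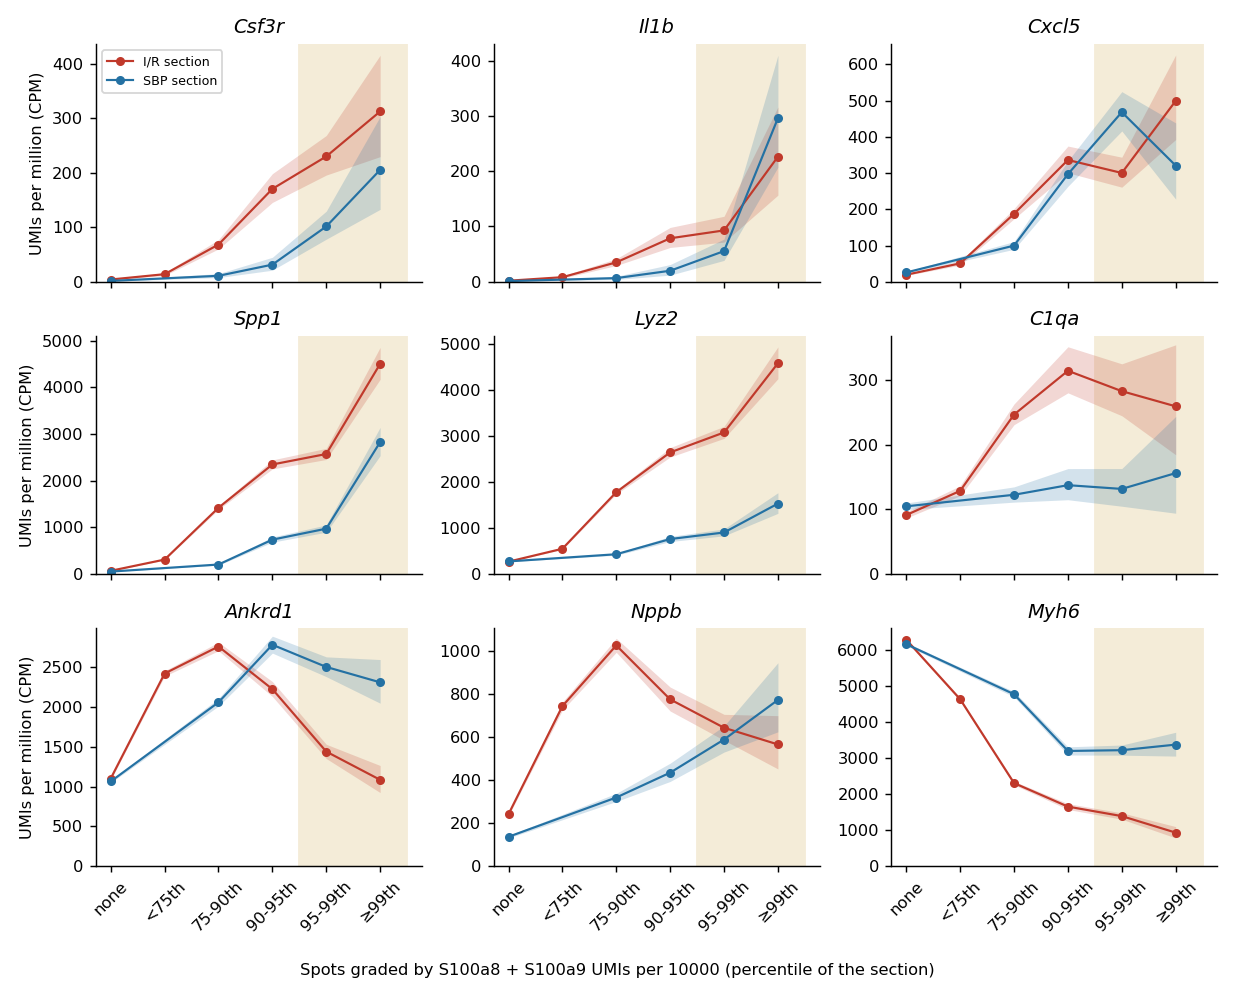
Levels in CPM of 9 genes by grade of the S100a8 and S100a9 level of the spots, from spots without the pair to the highest 1%, in I/R and SBP; bands are 95% Poisson intervals and the shaded grades are the neutrophil-rich spots. The SBP grade above 0 and below the 75th percentile, with 14 spots and no Csf3r UMI, is not drawn. Csf3r climbs with every grade drawn, Myh6 falls from 6295 to 932 CPM in I/R, and Ankrd1 peaks below the shaded grades.

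Ordering spots by the level of the pair showed where each kind of gene peaked. Csf3r went from 4.16 CPM in I/R spots without the pair through 68.4 CPM at the 75th to 90th percentile and 230 CPM at the 95th to 99th to 313 CPM in the highest 1%. In SBP, with the grade of 14 spots left out, it went from 1.61 through 11 and 101 to 206 CPM. Ankrd1 in I/R went from 1101 CPM in spots without the pair up to 2760 CPM at the 75th to 90th percentile. It stood at 1085 CPM in the highest 1%. Nppb went from 241 to 1026 and 566 CPM at the same grades. In SBP, Ankrd1 stood at 1064 CPM without the pair, 2782 CPM at the 90th to 95th percentile and 2310 CPM in the highest 1%, and Nppb went up from 136 to 773 CPM without turning. C1qa peaked at 315 CPM (280 to 352) at the 90th to 95th percentile of I/R, with 283 CPM (245 to 325) in the grade above it, and ran from 105 to 156 CPM in SBP. Myh6 went down to 932 CPM in I/R and only to 3379 CPM in the highest 1% of SBP. On the CPM scale, Ankrd1 thus peaked below the neutrophil-rich grades in both sections, and it stayed near its peak within them in SBP.

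The spots highest in other genes were also counted, which need not follow the order of the grades. None of the 105 I/R spots was among the 105 spots highest in Ankrd1. In SBP 12 of the 98 spots were among the 98 highest there (12.2%). Spots are not replicates, so no interval is given for these counts and the difference between sections was not tested. For Nppb the counts were 4 and 21. For Csf3r they were 41 of 105 and 44 of 98, for Arg1 40 and 30, for Spp1 33 and 30, for Ccl2 with Ccl7 33 and 35, and for Cxcl5 24 and 36. Spots highest in C1qa, C1qb and C1qc overlapped in 20 and 15 spots, and those highest in hemoglobin in 1 and 1. Sets of this size hold 5.04% of I/R and 5% of SBP spots. The spots lowest in mitochondrial percent overlapped in 40 and 40 spots, and those with the fewest UMIs in 28 and 30, and their part in these counts was not tested.

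**Figure D4:**
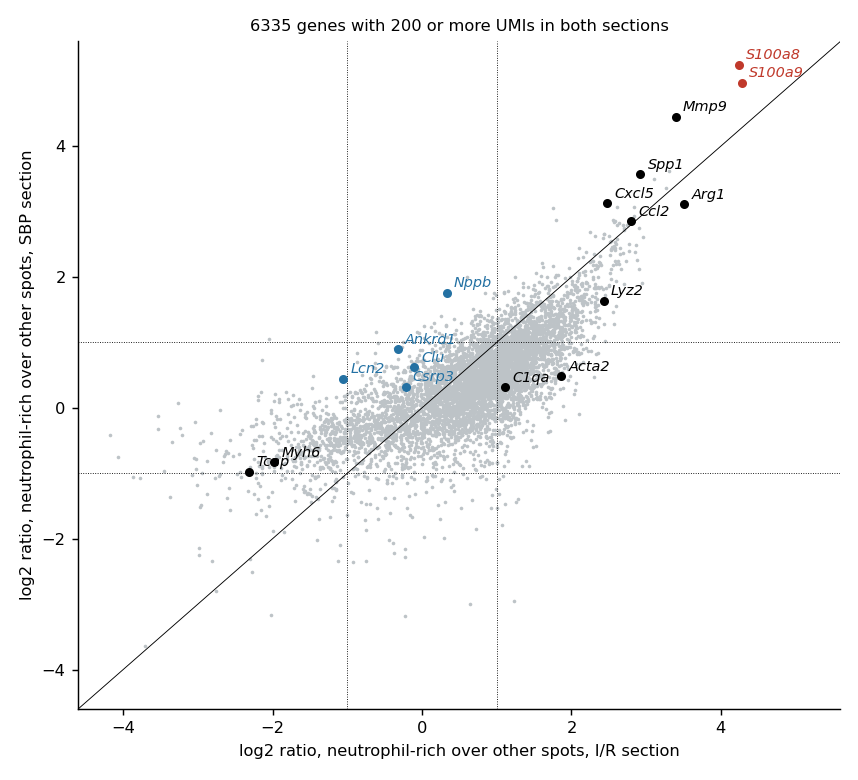
Each point is a gene with at least 200 UMIs in both sections (6335 drawn), with the log2 ratio of neutrophil-rich over other spots in I/R on the horizontal axis and in SBP on the vertical axis. Mmp9, Arg1, Spp1, Cxcl5, Ccl2 and Lyz2 lie at the upper right. Not all drawn neutrophil genes do: Lcn2 lies at -1.06 in I/R and 0.44 in SBP, and G0s2 and Sod2 are negative in both. Receptors under 200 UMIs in SBP, such as Csf3r and Il1r2, are not drawn. Most cardiomyocyte genes lie further below 0 in I/R than in SBP.

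Over the 6344 genes tested in both sections, 952 were at least 2-fold higher in both, which was 39.2% of those higher in I/R and 87.9% of those higher in SBP. Over all of these genes, 38.3% were higher in I/R and 17.1% in SBP. Another 93 were lower in both, 18.8% of those lower in I/R and 51.7% of those lower in SBP. Over all of these genes, 7.82% were lower in I/R and 2.84% in SBP. Against other spots of the same mitochondrial percent, only 2 of the 6344 genes were at least 2-fold higher in both. That comparison had 48 genes higher in I/R and 165 in SBP among all those tested in each section. The count of 2 leaves out genes under 200 UMIs in SBP. Among these, Il1r2, Il1b and Csf3r, picked after their values were seen, were some of those past 2-fold in both sections. Ratios across genes had a Spearman rho of 0.76 over 6333 genes, which are not independent and share the mitochondrial shift. Only 10 genes were past 2-fold in opposite directions, none of them in a list, and each had 4 or fewer UMIs in the neutrophil-rich spots of 1 section.

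The sham section gives the background of the rule. A 95th percentile exists in any section, and in sham it lay at 1.11 per 10000, where the spots just inside and just outside the threshold each held 1 UMI of the pair. It chose 112 of 2234 spots, which held 433 of 558 UMIs of the pair. In sham, 9 spots reached the SBP threshold and 1 reached the I/R threshold, so spots as rich in the pair as those described above were nearly absent there. The genes beside the pair were not particular to the injured sections: in the sham spots, against a median gene of 0.34, the median log2 ratio was 2.21 for neutrophil receptors, 2.38 for chemoattractants, 2.42 for recruited monocyte genes, 2.20 for MHC class II genes and 1.82 for injury matrix genes. Csf3r in sham had 51 of 113 UMIs in these spots, a ratio of 4.05, and cardiomyocyte genes had a median of -0.36.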

How the data were processed

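Spatial transcriptomic libraries (Visium) of 3 heart sections were analysed: I/R, SBP and sham. The authors deposited gene by spot matrices of raw UMI counts for tissue-covered spots, without normalization, made with Space Ranger 1.3.0 on the mm10 mouse build per the submitters' processing notes. The study's methods name another version and a human reference, while the matrices list 32285 mouse genes. Spots with under 200 genes were left out (1, 2 and 3 spots in I/R, SBP and sham). UMIs were summed over neutrophil-rich and over other spots and divided by summed totals (CPM, with no pseudocount). Genes with 200 or more UMIs in a section were compared, and a call was a ratio of at least 2-fold by size, with no test. The members and the 27 gene lists were chosen with earlier results of these data known.

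Genes named were S100a8 and S100a9, the 10 largest and 5 smallest ratios of each section, the 5 largest among genes with 2000 or more UMIs, members of the lists, and genes said to be named after their values were seen. Jak2 and Clec4n in the weighted comparison, the genes under 200 UMIs and the genes picked from each list were named in that way. Intervals were exact (Poisson for levels, Clopper-Pearson for shares, conditional binomial for ratios) at 95% and cover counting error only. A gene with no UMI in the neutrophil-rich spots was set at a floor of 3 UMIs over those spots together. For the weighted comparison, added after seeing the data, other spots were reweighted in 5 bins of mitochondrial percent that held about equal numbers of neutrophil-rich spots. Symbols came from the deposited matrices, and 32158 of 32285 identifiers were found in the gene annotation. Slides carry the same position barcodes, of which 1205 occurred in both injured sections. Alternatives changed the percentile, the choosing gene, the threshold, the depth (spots thinned to 3000 UMIs), the denominator, the filters and the scaling. Scripts were tested on simulated data. The scripts ran in Python 3.11.15 with scipy 1.17.1, pandas 2.3.3, numpy 2.4.6, and matplotlib 3.10.9 for the plots. A gene of the injury matrix list is not reported here by name.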

Additional observations from a re-analysis of the deposited data

Results flagged for a closer look

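Of 185 list genes tested in both injured sections, 4 were higher in the neutrophil-rich spots of one section and lower in those of the other, with intervals that did not reach 0 in either. Each condition was 1 section, so the difference was not tested. Ankrd1, the stretch-induced muscle gene, was at a log2 ratio of -0.32 in I/R and 0.90 in SBP. Clu, clusterin, was at -0.11 and 0.62, with 1003 against 1083 CPM in I/R and 1101 against 714 CPM in SBP. Csrp3, a muscle LIM protein of the Z-disc, was at -0.22 and 0.32. Lcn2, lipocalin 2, was at -1.06 and 0.44. With mitochondrial UMIs left out of the totals of the same spots, the values were -0.91 and 0.65 for Ankrd1, -0.69 and 0.38 for Clu, -0.80 and 0.07 for Csrp3, and -1.64 and 0.20 for Lcn2. Against other spots of the same mitochondrial percent they were -0.39 and 0.57 for Ankrd1, -0.49 and 0.12 for Clu, -0.16 and 0.26 for Csrp3, and -0.28 and 0.61 for Lcn2. With the SBP threshold applied to I/R, Ankrd1 was at 0.09, Clu at 0.06 and Csrp3 at 0.00, and Lcn2 at -0.96.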

How the results depend on the processing

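The share of the pair's UMIs held by neutrophil-rich spots follows the choice. In I/R and SBP it was 55.5% and 78.9% at the 90th percentile, 11.4% and 18.8% at the 99th, 33.8% and 52.2% by S100a8 alone, 56.7% and 28.4% at the other section's threshold, 30.9% and 48.4% with the UMIs split, 54.1% and 81.0% thinned to 3000 UMIs, 43.0% and 65.8% with the pair not divided by depth, and 27.4% and 44.9% without the highest 1% of spots. Counts of genes at least 2-fold higher in I/R were 1104 without mitochondrial UMIs (spots chosen anew), 857 from 1000 UMIs, 618 around the median gene and 48 in the weighted comparison, which was added after seeing the data. Genes lower in I/R then numbered 945, 266, 1389 and 187, with 1041 at the 99th percentile and 880 from 50 UMIs. In SBP the higher genes were 506 without mitochondrial UMIs, 694 with the pair not divided by depth, 2335 from 50 UMIs, 169 from 1000, 399 around the median gene and 165 weighted. Lower genes in SBP were 96 and 831 at the 90th and 99th percentiles, 551 at the I/R threshold, 334 with split UMIs, 292 without mitochondrial UMIs, 290 thinned, 106 with the pair not divided by depth, 623 from 50 UMIs, 22 from 1000 and 522 around the median gene. Genes higher in both sections were 325 without mitochondrial UMIs, 622 with the pair not divided by depth, 1880 from 50 UMIs, 157 from 1000, 217 around the median gene and 2 weighted. The gene minimum and the number of spots set how many genes can pass. The causes of the other moves were not tested.

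For single genes named, 873 of 1406 values over the settings in I/R and 1070 of 1486 in SBP stayed within counting error of those given, and 522 and 416 moved without a change of sign in a called value. Only the weighted comparison turned the sign of a gene named and called, all in I/R: Acta2 -0.50, Ager -1.3 (on 1 UMI), C1qa -0.45, C1qb -0.15, C1qc -0.33, Ccl4 -0.22, Ccr2 -0.074, Chil3 -0.047, Cybb -0.20, Lgals3 -0.0055 and Marcksl1 -0.041. No paired analysis was possible because the sections number 1 per condition. For the same reason leaving out a replicate could not be run, and a gene under 3 UMIs in the neutrophil-rich spots has no firm ratio at this depth.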

Other observations

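Beyond the genes described above, the SBP neutrophil-rich spots stood at least 2-fold above other spots of the same mitochondrial percent in general genes of activated leukocytes, which were picked after their values were seen. Cebpb, a transcription factor of myeloid cells, was at a log2 ratio of 1.53 (1.33 to 1.72), and Junb, an early-response factor, at 1.36. Alox5ap, which leukotriene synthesis requires, was at 1.43, and Slfn2 at 1.49. Lcp1, the plastin of leukocytes, was at 1.3, Cd52 at 1.26 and Cd53 at 1.29. In I/R, the comparison put the placental growth factor gene Pgf at 0.77, the endothelin receptor gene Ednrb at 0.71, Il17ra, the receptor of interleukin 17, at 0.71, and Igfbp3 at 0.99, all under 2-fold.

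Spots chosen by the same rule in sham, which held a pair level of 1 UMI at the threshold, also had Spp1 at a log2 ratio of 4.53, Lgals3 at 3.88, Cxcl5 at 3.62, Mpeg1 at 3.53 and Ccl2 at 3.27. Their mitochondrial percent was 41.2 against 49.0 in the other sham spots.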
